A study of Mus musculus with 67 samples.

Results

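The transcripts described are those of 6 chemokine genes of T cells sorted from the mouse brain, *Ccl5*, *Ccl3*, *Ccl4*, *Xcl1*, *Cxcl10* and *Ccl1*. They were chosen by name as a list, and each was found under its own symbol, so that they are 6 of the 24530 gene features of the second experiment and 6 of the 24421 symbols of the pilot experiment. In GRCm38.p6, *Ccl5* (chromosome 11, 83525778 to 83530518), *Ccl3* (chromosome 11, 83647843 to 83649378), *Ccl4* (chromosome 11, 83648624 to 83664683) and *Ccl1* (chromosome 11, 82176666 to 82179812) lie on the same chromosome. The annotated spans of *Ccl4* and *Ccl3* overlap. *Xcl1* lies on chromosome 1 (164931644 to 164935522) and *Cxcl10* on chromosome 5 (92346638 to 92348889).

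RNA was sequenced from 67 libraries of sorted T cells, and the study asks how a high-fat high-sugar (HFHS) diet against a standard diet (SD) alters such cells. In the second experiment, each of 59 libraries held pooled cells from the hypothalamus or from the rest of the brain of Foxp3GFP reporter mice, either activated conventional T cells (Tconv, CD4+CD25-Foxp3GFP-CD44 highCD62L low) or Foxp3GFP+ regulatory T cells (Treg). The pilot experiment held 1 library per group, all labelled as from pooled females, so its values have no replicate error. Its diet groups were Balb/c mice with the Foxp3GFP reporter after 16 weeks on the HFHS diet or SD. Its other groups were *ob*/*ob* mice, which the study's text puts on SD, and C57Bl/6J wild-type mice, with no diet in the labels of either. A figure legend of the study names the HFHS diet for its *ob*/*ob* or wild-type groups, so the diet of these 2 groups is not settled. Reads counted on genes numbered 13196689 to 20538309 in the hypothalamic Tconv libraries, 1724149 to 38482277 in hypothalamic Treg, 11340063 to 28187008 in rest brain Tconv and 8938477 to 24985589 in rest brain Treg. By strain and diet, the 8 hypothalamic groups had 4 libraries each. The rest brain Tconv groups had 3 libraries for Balb/c on the HFHS diet, 3 for Balb/c on SD, 3 for C57Bl/6J on the HFHS diet and 4 for C57Bl/6J on SD, and the Treg groups had 4, 2, 4 and 4 in the same order. Balb/c mice were female and C57Bl/6J mice male, so strain and sex cannot be told apart. By the study's methods the HFHS diet began at 6 weeks of age, and the sample labels of the second experiment give no weeks on diet.

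Chemokines are small secreted proteins that guide the movement of leukocytes by binding receptors on the cells they attract. *Ccl5* and *Ccl3* encode ligands of the receptor Ccr1, *Ccl4* encodes a close relative of Ccl3, and effector and memory T cells and NK cells are known sources of them. *Xcl1* encodes a ligand of Xcr1, a receptor of cross-presenting dendritic cells, *Cxcl10* an interferon-induced ligand of Cxcr3, and *Ccl1* a ligand of Ccr8.

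Of the 30 libraries labelled Treg, 4 from the hypothalamus were low in *Foxp3*, the gene that defines Treg. In these it lay at or under 13.8 CPM (counts per 1e6 counts on genes), the highest value of any Tconv library. One of them, of Balb/c on SD (pool 32_36), had 0.0977 CPM of *Foxp3* and 22030 CPM summed over 8 microglia markers. Its sum over 6 Treg markers was at least 1790 CPM, the lowest of any Balb/c hypothalamic Treg library, against at most 684.7 CPM in hypothalamic Tconv. Another, of C57Bl/6J on the HFHS diet (pool 06_10), had 0.429 CPM of *Foxp3* but 1711 CPM of *Ikzf2*, another Treg gene. These libraries of pools 32_36 and 06_10 had the fewest genes over 10 counts of all 59, at 2152 and 2108. The next, of C57Bl/6J on SD (pool 11_15), had 1.19 CPM of *Foxp3* and only 183 CPM over 7 T-cell markers, against 4304 CPM over 5 endothelial markers and 2702 CPM over 11 markers of macrophages, monocytes and dendritic cells. The last, also of C57Bl/6J on SD (pool 43_47), had 3.48 CPM of *Foxp3* and the lowest depth, 1724149 counts. Comparisons of the chemokine genes in hypothalamic Treg are also given without these 4 libraries, a choice made after seeing the data, while marker sums and gene lists use all libraries. No pair of the 59 libraries had identical counts.

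Among the chemokines, *Ccl5* was the most abundant transcript per length. On the scale of TPM (transcripts per 1e6, which allows for transcript length), the hypothalamic Tconv medians were 3908 for *Ccl5*, 550.2 for *Xcl1*, 278 for *Ccl4*, 13.8 for *Cxcl10*, 9.45 for *Ccl3* and 0 for *Ccl1*. In rest brain Tconv the order was the same, with median TPM of 5430, 683, 378, 50.7, 31.1 and 3.0. *Ccl5* was the highest of the 6 in 16 of 16 hypothalamic and 13 of 13 rest brain Tconv libraries, and its lowest TPM, 2262 and 2055, lay above the highest *Xcl1* TPM in the same tissue, 1193 and 1262. Each of the other neighbours in the order overlapped, since the *Ccl4* TPM reached 873 and 1605, that of *Cxcl10* 433 and 138, that of *Ccl3* 188 and 279 and that of *Ccl1* 920.3 and 196. In Treg, *Ccl5* had a median TPM of 438 in the hypothalamus and 319 in the rest brain and was the highest of the 6 in 11 of 16 and 13 of 14 libraries. *Cxcl10* came next in Treg, with medians of 8.03 and 41.9 TPM, and the other 4 genes had medians of 0.

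**Figure D1:**
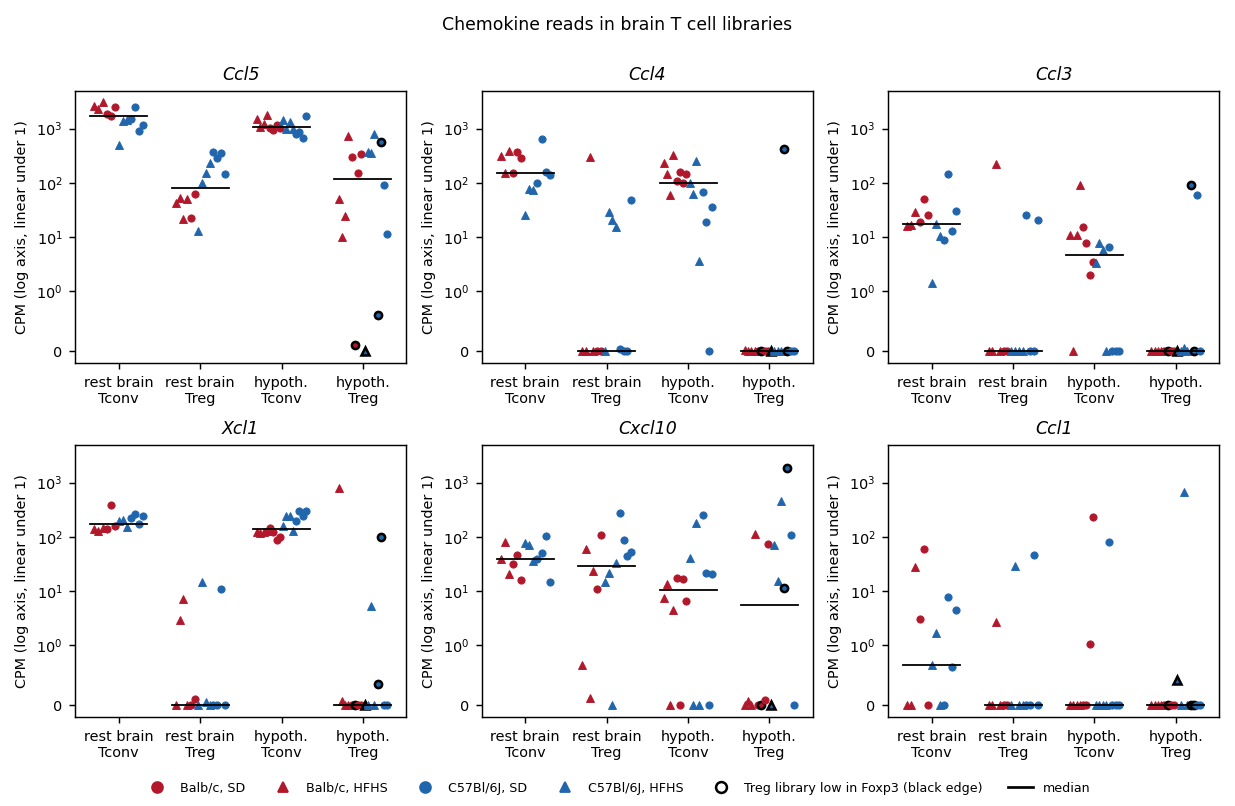
Level of each chemokine gene in CPM on a log axis, with 1 point per library, in Tconv and Treg of the hypothalamus and the rest brain. *Ccl5* and *Xcl1* separate Tconv (at least 494 and 130 CPM) from Treg (at most 375 and 14.4 CPM) in the rest brain, and single Treg libraries reach high levels of *Xcl1*, *Ccl1* and *Cxcl10* in the hypothalamus.

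Treg of the rest brain held far less *Ccl5* and *Xcl1* RNA than activated Tconv of the rest brain. *Ccl5* ranged from 494 CPM through a median of 1723 to 3031 CPM in 13 Tconv libraries and from 12.8 CPM through a median of 80.9 to 375 CPM in 14 Treg libraries. The groups did not overlap, as all 14 Treg libraries lay below the lowest Tconv library. *Xcl1* ranged from 130 CPM through a median of 174 to 387 CPM in Tconv and from 0 CPM through a median of 0 to 14.4 CPM in Treg. Again no library overlapped, and 10 of the 14 Treg libraries had 3 counts or fewer. In the edgeR quasi-likelihood test with Benjamini-Hochberg adjustment over 13956 genes, *Ccl5* fell in Treg by 4.22 on the log2 scale (SE 0.498, adjusted p 8.04e-07). *Xcl1* fell by 6.58 on the log2 scale (SE 1.13, adjusted p 0.000211), with a value of -7.97 without the Treg library of C57Bl/6J on SD from pool 62_66 and of -7.87 without that of C57Bl/6J on the HFHS diet from pool 33_37. In bulk samples, fewer cells that make a chemokine and less RNA per cell cannot be told apart.

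*Ccl4* and *Ccl3* were absent from most rest brain Treg libraries but high in 1 of them. *Ccl4* ranged from 25 CPM through a median of 152 to 639 CPM in Tconv and from 0 CPM through a median of 0 to 301 CPM in Treg, where 9 of 14 libraries had 3 counts or fewer. The Treg libraries lay below the lowest Tconv library in 11 of 14 cases, and the 301 CPM came from the Balb/c HFHS library of pool 26_31. *Ccl3* ranged from 1.38 CPM through a median of 17.6 to 143 CPM in Tconv, with 11 of 14 Treg libraries at 3 counts or fewer and the same Treg library at 218 CPM. That library was not low in T-cell or Treg markers, with sums of 10380 CPM over 7 T-cell markers and 4312 CPM over 6 Treg markers, and 109 CPM over 8 microglia markers. With all libraries, the edgeR quasi-likelihood test with Benjamini-Hochberg adjustment gave a log2 fold change of -3.58 for *Ccl4* (SE 1.33, adjusted p 0.0674) and -4.11 for *Ccl3* (SE 2.04, adjusted p 0.199), so neither passed. DESeq2 called *Ccl4* (adjusted p 0.0433), as did edgeR with the filter on total counts (adjusted p 0.0411), and limma-voom called *Ccl4* (adjusted p 0.00133) and *Ccl3* (adjusted p 1.93e-05). Both were also called with the pool label as a block, where 12.7% of all genes were. Without pool 26_31 both passed, *Ccl4* at -5.98 (edgeR adjusted p 0.0117) and *Ccl3* at -8.39 (edgeR adjusted p 0.00213), and *Ccl4* also passed without the C57Bl/6J SD Treg library of pool 67_71, at -5.08 (edgeR adjusted p 0.0488).

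*Cxcl10* and *Ccl1* did not pass in this comparison. *Cxcl10* ranged from 14.9 CPM through a median of 39.7 to 104 CPM in rest brain Tconv and from 0 CPM through a median of 28.4 to 273 CPM in Treg, with 2 Treg libraries above and 5 below all Tconv libraries (edgeR log2 fold change -0.42, adjusted p 0.798). *Ccl1* was over 3 counts in 8 of 13 Tconv and 3 of 14 Treg libraries, with highest values of 60.6 and 46.3 CPM (edgeR adjusted p 0.941). In all, 2 of the 6 chemokine genes were called against a background of 15.7% of all genes, and their median log2 fold change was -3.85 against -0.35 over all genes.

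In the hypothalamus, Treg libraries were also lower in *Ccl5*, *Ccl4* and *Ccl3*, with a few Treg libraries as high as Tconv. *Ccl5* ranged from 660.4 CPM through a median of 1050 to 1755 CPM in 16 Tconv libraries and from 0 CPM through a median of 119 to 793 CPM in 16 Treg libraries. The groups overlapped, with 14 of 16 Treg libraries below the lowest Tconv library. *Ccl5* fell in Treg by 2.45 on the log2 scale in the edgeR quasi-likelihood test with Benjamini-Hochberg adjustment over 11283 genes (SE 0.687, adjusted p 0.0112). Within Balb/c alone the edgeR log2 fold change was -2.61 (adjusted p 0.0644) and within C57Bl/6J alone -2.12 (adjusted p 0.414), so the call was not made in either strain by itself, and over 8 alternatives the adjusted p ran from 4.92e-05 to 0.414. Without the 4 libraries low in *Foxp3*, *Ccl5* in Treg ran from 9.82 CPM through a median of 225 to 793 CPM in 12 libraries, and fell by 2.43 on the log2 scale (edgeR adjusted p 0.000645).

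*Ccl4* ranged from 0 CPM through a median of 99.9 to 330.0 CPM in hypothalamic Tconv, and 15 of 16 Treg libraries had 3 counts or fewer. The 1 Treg library over that level, C57Bl/6J on SD of pool 11_15, had 411 CPM, above every Tconv library, and is the library with few T-cell markers. *Ccl4* fell by 12.06 on the log2 scale in edgeR (SE 2.99, adjusted p 0.00403) and by 13.58 without that library (adjusted p 2.57e-09), fitted values that are no bounds because nearly all Treg libraries lie at the floor of 3 counts. *Ccl3* ranged from 0 CPM through a median of 4.61 to 91.7 CPM in Tconv, over 3 counts in 11 of 16 libraries, and 14 of 16 Treg libraries had 3 counts or fewer. The other 2 had 89.3 CPM (pool 11_15) and 59.6 CPM, both from C57Bl/6J on SD. They lie above all 8 Tconv libraries of that strain, which reach 7.83 CPM, and below the highest Balb/c Tconv library. *Ccl3* fell by 8.09 on the log2 scale in edgeR (SE 2.47, adjusted p 0.0211) and had -7.93 without the 4 libraries low in *Foxp3* (adjusted p 0.0485), with a value of -0.96 (adjusted p 0.991) in C57Bl/6J alone and -4.15 (adjusted p 0.0646) in limma-voom, against a range of adjusted p from 6.92e-08 to 0.991 over 8 alternatives. In C57Bl/6J alone *Ccl4* did not pass either, at -4.80 (edgeR adjusted p 0.987). Over 8 alternatives to the fit of both strains, each strain alone among them, its adjusted p ran from 1.71e-21 to 0.987.

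*Xcl1* was high in every hypothalamic Tconv library and at 0 or near it in all but a few Treg libraries. It ranged from 87.0 CPM through a median of 138 to 304 CPM in Tconv, and 13 of 16 Treg libraries had 3 counts or fewer. The remaining Treg libraries had 791 CPM (Balb/c HFHS, pool 11_14), 99.2 CPM (C57Bl/6J SD, pool 43_47) and 5.36 CPM (C57Bl/6J HFHS, pool 72_76), so 1 Treg library lay above all Tconv libraries and 14 of 16 below. The edgeR quasi-likelihood test with Benjamini-Hochberg adjustment gave a log2 fold change of -5.49 (SE 1.96, adjusted p 0.0555), which missed the threshold of 0.05. It was called by limma-voom at -9.60 (adjusted p 1.82e-08) and by edgeR with the filter on total counts at -5.56 (adjusted p 0.0460). It was also called with the pool label as a block, where 49.1% of all genes were. Over 8 alternatives the adjusted p ran from 1.82e-08 to 0.774. *Xcl1* passed edgeR in 8 of 32 fits that left out 1 library: at -8.62 without Treg pool 11_14 (adjusted p 0.000458), at -8.29 without Treg pool 43_47 (adjusted p 0.00841), and at -5.49 without the Balb/c HFHS Treg pools 26_31 (adjusted p 0.0490) or 15_21 (adjusted p 0.0496). It also passed at -5.95 without any of the Balb/c HFHS Tconv pools 11_14, 15_21, 16_20 and 26_31 (edgeR adjusted p 0.0391 to 0.0405). Without the 4 libraries low in *Foxp3* the value was -7.37 (edgeR adjusted p 0.0525).

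*Cxcl10* was over 3 counts in 11 of 16 hypothalamic Tconv and 8 of 16 Treg libraries, with a highest value of 257 CPM in Tconv and of 1874 CPM in Treg (edgeR log2 fold change 1.61, adjusted p 0.581). *Ccl1* was over 3 counts in 3 Tconv and 2 Treg libraries, with highest values of 228 and 669 CPM (edgeR adjusted p 0.303). In all, 3 of the 6 chemokine genes were called, with a background of 13.9% of all genes, and 3 of 6 with 17.1% when the 4 libraries low in *Foxp3* were left out. The median log2 fold change was -0.96 over all genes, so transcripts in general had lower fitted values in hypothalamic Treg. Fewer genes were detected there, with a median of 5808.5 against 10912.5 in Tconv, and in rest brain Treg 10112.5 against 15142.

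Whether the cell-type difference itself differed between the tissues was tested by an interaction in edgeR over 14764 genes. For *Ccl5* the hypothalamic difference was smaller by a log2 value of 1.70 (SE 0.860, adjusted p 0.256), and for *Xcl1* by 3.72 (SE 1.93, adjusted p 0.276). The *Xcl1* value was 0.139 without the Balb/c HFHS Treg library of pool 11_14 and -0.43 in limma-voom, so its direction is not settled. With the edgeR quasi-likelihood test, 0 of the 6 genes were called and 0 had an unadjusted p under 0.05, with a background of 9.48%, and DESeq2 and limma-voom also called 0. In Balb/c alone *Ccl5* (3.55, adjusted p 0.0237), *Ccl3* (-10.24, adjusted p 0.0379) and *Ccl4* (-10.39, adjusted p 0.00496) were called by edgeR, with 10.9% of all genes. Without the 4 libraries low in *Foxp3*, *Ccl5* at 2.06 (edgeR adjusted p 0.0402) and *Ccl4* at -10.04 (edgeR adjusted p 9.5e-05) were called. *Ccl4* was also called when Treg pool 11_15 alone was left out, at -10.23 (edgeR adjusted p 2.44e-05), against -3.42 (adjusted p 0.745) with it.

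Markers of CD8 T cells and NK cells, which also make these chemokines, differed between the cell types. The study describes a gate for brain CD4+ T cells that leaves out cells stained for CD8a, B220 or several myeloid proteins, and the 2 CD8 T-cell markers, *Cd8a* and *Cd8b1*, summed to 8.69 to 619 CPM (median 218) in hypothalamic Tconv and to 1.94 to 736 CPM (median 276) in rest brain Tconv, with *Cd8b1* the more abundant. In Treg their medians were 0.0688 and 21.5 CPM. *Cd8a* fell in Treg, with log2 fold changes of -7.53 (edgeR adjusted p 0.00425) in the rest brain and -11.74 (edgeR adjusted p 3.17e-05) in the hypothalamus. The 5 NK-cell markers, led by *Klrk1*, had medians of 99.0 and 141 CPM in hypothalamic and rest brain Tconv and at most 0.120 CPM in any Treg library. Among them *Ncr1* was at 0 in 5 of 8 Balb/c and 8 of 8 C57Bl/6J hypothalamic Tconv libraries and *Klra8* was at most 0.109 CPM in any Tconv library. The 11 markers of macrophages, monocytes and dendritic cells, led by *Ly6c2*, had medians of 374 and 733 CPM in hypothalamic and rest brain Tconv and of 0.255 and 0.732 CPM in Treg. The 8 microglia markers had higher medians in Treg, at 243 against 95.3 CPM in the hypothalamus and 196 against 94.4 CPM in the rest brain. The 5 endothelial markers were higher in the median in rest brain Treg (94.9 against 24.96 CPM) and lower in hypothalamic Treg (2.95 against 35.4 CPM). The part of any of these cells in the chemokine values was not tested.

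In edgeR over both strains, activated Tconv of the hypothalamus held less *Ccl5* than those of the rest brain, a call that not every alternative made. The *Ccl5* values given above overlapped between the tissues, with 6 of 13 rest brain libraries above all 16 hypothalamic libraries and 1 below them. *Ccl5* fell in the hypothalamus by 0.73 on the log2 scale in the edgeR quasi-likelihood test with Benjamini-Hochberg adjustment over 12833 genes (SE 0.186, adjusted p 0.00617). This call was lost with the pool label, which some libraries of both tissues share, as a block. In that fit 0 of the 6 genes were called, and 0.896% of all genes. The levels of *Ccl4*, *Ccl3* and *Cxcl10* were also lower in the median, at 99.9 against 152 CPM, 4.61 against 17.6 CPM and 10.4 against 39.7 CPM, without passing in edgeR (log2 fold changes of -1.20, -2.16 and -1.14, adjusted p 0.157, 0.135 and 0.451). *Xcl1* had medians of 138 and 174 CPM (edgeR log2 fold change -0.30, adjusted p 0.255). Thus 1 of the 6 genes was called, at a share close to the background of 17.4%, and the median of all genes was -0.11. Without the hypothalamic Balb/c HFHS library of pool 26_31 *Ccl3* passed at -2.62 (edgeR adjusted p 0.0479), and without the hypothalamic C57Bl/6J SD library of pool 11_15 *Ccl1* passed at -6.69 (edgeR adjusted p 0.0245), against -2.08 (adjusted p 0.652) with it.

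Within strains, the tissue difference of *Ccl5* passed in Balb/c and not in C57Bl/6J. There *Ccl5* had 921.0 to 1755 CPM in 8 hypothalamic and 1723 to 3031 CPM in 6 rest brain Tconv libraries, with 7 of 8 hypothalamic libraries below all rest brain libraries and medians of 1124 and 2398 CPM (edgeR log2 fold change -1.25, adjusted p 2.81e-06). *Ccl4* (-1.09, adjusted p 0.0111) and *Xcl1* (-0.87, adjusted p 0.00636) passed there as well, 3 of 6 genes against 25.5% of all genes. In C57Bl/6J it had 660.4 to 1702 CPM in 8 hypothalamic and 494 to 2548 CPM in 7 rest brain libraries, with 1 rest brain library above and 1 below all hypothalamic libraries. The medians, 979.6 and 1379 CPM, lay in the same direction as in Balb/c. The edgeR log2 fold change was -0.27 in C57Bl/6J alone (adjusted p 1.0), where 1 gene in all passed. Over 7 alternatives to the fit of both strains, each strain alone among them, the adjusted p of *Ccl5* ran from 2.81e-06 to 1.0. The difference between strains in this tissue effect was tested in edgeR as an interaction added after seeing the data, and did not pass for *Ccl5* (-0.86, SE 0.346, adjusted p 0.115), except without the rest brain C57Bl/6J SD library of pool 11_15 (-1.14, adjusted p 0.0145). For *Xcl1* the interaction passed in edgeR, at -0.97 on the log2 scale (SE 0.287, adjusted p 0.0260), so that 1 of the 6 genes was called against a background of 10.4%. *Xcl1* in Balb/c had 87.0 to 145 CPM in the hypothalamus and 130 to 387 CPM in the rest brain, with 6 of 8 hypothalamic libraries below all rest brain libraries, while in C57Bl/6J it had 129 to 304 CPM and 149 to 265 CPM. By TPM the Balb/c medians ran the other way, 471.9 in the hypothalamus and 415.1 in the rest brain, with lowest values of 360.9 and 365.1. The *Xcl1* interaction rests on the Balb/c SD rest brain library of pool 37_41, at 387 CPM, without which it was -0.67 (edgeR adjusted p 0.0801).

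In Treg, *Ccl5* had medians of 119 CPM in the hypothalamus and 80.9 CPM in the rest brain, and the ranges overlapped (edgeR log2 fold change 1.25, adjusted p 0.629). With the edgeR quasi-likelihood test 0 of the 6 chemokine genes were called between tissues in Treg, with 0 at an unadjusted p under 0.05, 0 by DESeq2 and 0 by limma-voom, and a background of 5.6%. Without the 4 libraries low in *Foxp3*, *Ccl4* was called at -10.82 (edgeR adjusted p 0.0164). It was also called without pool 11_15 alone, at -10.81 (edgeR adjusted p 0.00441), and *Ccl1* without the C57Bl/6J HFHS library of pool 72_76, at -6.52 (edgeR adjusted p 0.0470).

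Between strains, activated Tconv differed in *Xcl1* in the hypothalamus and in *Ccl5* in the rest brain. *Xcl1* in hypothalamic Tconv was 116, 122, 123 and 131 CPM in Balb/c on the HFHS diet and 87.0, 99.0, 125 and 145 CPM in Balb/c on SD. It was 129, 159, 246 and 247 CPM in C57Bl/6J on the HFHS diet and 195, 246, 297 and 304 CPM in C57Bl/6J on SD. The C57Bl/6J libraries were higher, with 7 of 8 above all Balb/c libraries and 1 of them, at 129 CPM, within their range. *Xcl1* fell in Balb/c against C57Bl/6J by 0.94 on the log2 scale in the edgeR quasi-likelihood test with Benjamini-Hochberg adjustment over 10875 genes (SE 0.177, adjusted p 0.00519). It was the 1 gene called of the 5 chemokine genes tested, with a background of 2.1%, and *Ccl1* did not have enough counts to be tested. With SD alone the edgeR value was -1.22 (adjusted p 0.0746) and with the HFHS diet alone -0.69 (adjusted p 0.33), so neither diet passed by itself, and the adjusted p ran from 7.12e-06 to 0.33 over 6 alternatives.

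Some other transcripts moved with strain as *Xcl1* did. The 2 CD8 T-cell markers did not, with median sums of 290.4 CPM in Balb/c and 144.8 CPM in C57Bl/6J hypothalamic Tconv and overlapping ranges. The 5 NK-cell markers summed to a median of 62.5 CPM in Balb/c and 203 CPM in C57Bl/6J hypothalamic Tconv, led by *Klrk1*, which fell in Balb/c by 2.44 on the log2 scale (edgeR adjusted p 0.0032). The 11 markers of macrophages, monocytes and dendritic cells summed to medians of 199 and 872 CPM, nearly all of it *Ly6c2*, which activated T cells also express, while *Itgam* and *Lyz2* were at most 0.0589 CPM. Over 29 Tconv libraries, *Xcl1* and *Ly6c2* had a Pearson correlation of 0.686 in log2 CPM (Spearman 0.770), at 0.845 in the hypothalamus and 0.251 in the rest brain. These points share library, depth, strain and tissue, and the correlation in the hypothalamus includes the strain difference of both genes. The part of these cells or transcripts in the *Xcl1* difference was not tested.

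*Ccl5* in rest brain Tconv was 2314, 2649 and 3031 CPM in Balb/c on the HFHS diet and 1723, 1878 and 2481 CPM in Balb/c on SD. It was 494, 1379 and 1418 CPM in C57Bl/6J on the HFHS diet and 885, 1179, 1526 and 2548 CPM in C57Bl/6J on SD. Balb/c libraries were higher, with 6 of 7 C57Bl/6J libraries below all 6 Balb/c libraries and 1, at 2548 CPM, within the Balb/c range. By TPM the groups overlapped more, from 5157 to 7849 in Balb/c and from 2055 to 8831 in C57Bl/6J, with medians of 6514 and 5030. *Ccl5* rose in Balb/c by a log2 value of 1.08 in the edgeR quasi-likelihood test with Benjamini-Hochberg adjustment over 12287 genes (SE 0.297, adjusted p 0.0130). With SD alone it was 0.50 (edgeR adjusted p 0.363), and with the HFHS diet alone it was called. Over 6 alternatives the log2 value ran from 0.498 to 1.749 and the adjusted p from 0.00343 to 0.363. *Ccl5* was the 1 of 6 chemokine genes called with both diets, a share below the background of 23.5% of all genes, which here differ widely between strains.

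*Ccl4* in rest brain Tconv was 152, 314 and 377 CPM in Balb/c on the HFHS diet, 151, 285 and 361 CPM in Balb/c on SD, 25, 74.6 and 75.5 CPM in C57Bl/6J on the HFHS diet and 99.7, 139, 160 and 639 CPM in C57Bl/6J on SD. The C57Bl/6J libraries lay below all Balb/c libraries in 5 of 7 cases, and the highest of them lay above all Balb/c libraries. With all libraries, *Ccl4* did not pass in edgeR (log2 fold change 1.36, adjusted p 0.0871). With the HFHS diet alone it was called (edgeR adjusted p 0.00158), and over 6 alternatives its log2 value ran from 0.131 to 2.734. Without the highest C57Bl/6J library (pool 11_15) it was 1.91 (edgeR adjusted p 0.0011), and without the Balb/c SD library of pool 32_36 it was 1.71 (edgeR adjusted p 0.0398). The 2 CD8 T-cell markers moved the same way, with a median sum of 348 CPM in Balb/c (276 to 479) and 39.8 CPM in C57Bl/6J (1.94 to 736), led by *Cd8b1*, which rose in Balb/c by 2.42 (edgeR adjusted p 0.0208). The 5 NK-cell markers were the other way, with a median sum of 121 CPM in Balb/c and 324 CPM in C57Bl/6J, as were the 11 markers of macrophages, monocytes and dendritic cells, with 247 and 892 CPM. The 8 microglia markers had a sum of 694 CPM in 1 Balb/c library (SD, pool 42_46) and at most 112 CPM in C57Bl/6J. Their part in the *Ccl5* and *Ccl4* values was not tested.

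**Figure D2:**
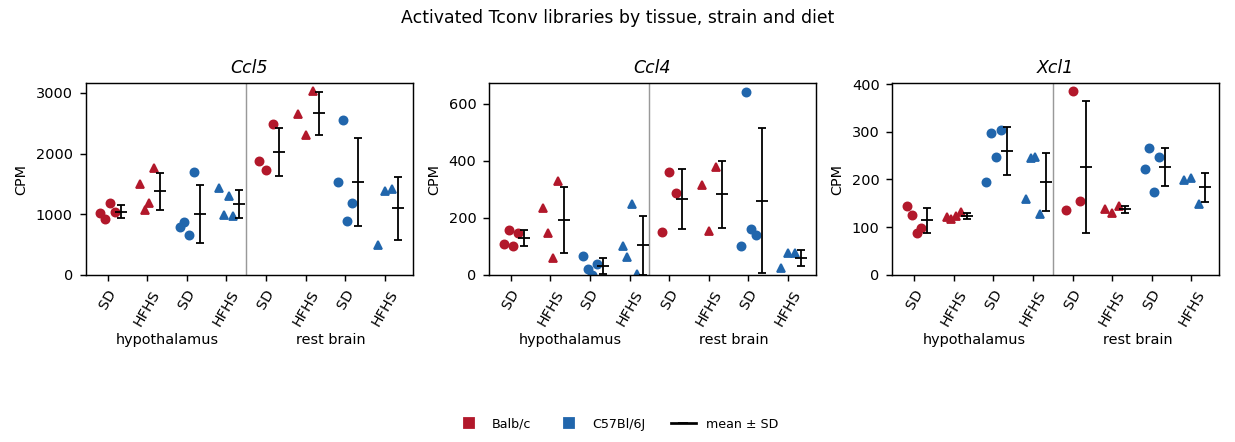
Level in CPM of the chemokine genes in each Tconv library by strain and diet, for the hypothalamus and the rest brain, with 1 point per library. In the hypothalamus 7 of 8 C57Bl/6J libraries lie above all Balb/c libraries for *Xcl1*, and in the rest brain 6 of 7 lie below all Balb/c libraries for *Ccl5*.

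In rest brain Treg the order of strains for *Ccl5* was the opposite. The 6 Balb/c libraries ran from 21.1 to 63.2 CPM, while the 8 C57Bl/6J libraries ran from 12.8 to 375 CPM, with 7 of 8 above the highest Balb/c library. The edgeR log2 fold change was -2.05 (SE 0.575, unadjusted p 0.00262, adjusted p 0.200), and it passed only without the C57Bl/6J HFHS library of pool 21_25, at 12.8 CPM (-2.33, adjusted p 0.0426). With the edgeR quasi-likelihood test 0 of 6 chemokine genes were called, with 1 at an unadjusted p under 0.05 and a background of 0.299%, while DESeq2 called 2, *Ccl5* (adjusted p 0.00723; edgeR and other alternatives up to 1.0) and *Ccl3*, and limma-voom 0. In hypothalamic Treg 0 of the 2 testable genes, *Ccl5* and *Cxcl10*, were called between strains by edgeR, with 0 at an unadjusted p under 0.05, 0 by DESeq2, 0 by limma-voom and a background of 0.0389%, and 0 without the 4 libraries low in *Foxp3*. The *Ccl5* values ran from 0.0977 to 731 CPM in Balb/c and from 0 to 793 CPM in C57Bl/6J.

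No chemokine gene passed the edgeR test between diets, and DESeq2 called 1, *Ccl3* in rest brain Treg. In hypothalamic Tconv *Ccl5* was 1062, 1191, 1493 and 1755 CPM on the HFHS diet and 921.0, 1018, 1037 and 1186 CPM on SD in Balb/c. In C57Bl/6J it was 977, 983, 1306 and 1428 CPM on the HFHS diet and 660.4, 788, 865 and 1702 CPM on SD. The HFHS medians were higher in both strains and the diets overlapped (edgeR log2 fold change 0.34, SE 0.175, unadjusted p 0.0661, adjusted p 1.0). *Ccl4* in these cells was 58.7, 147, 233 and 330.0 CPM on the HFHS diet and 99.6, 109, 147 and 157 CPM on SD in Balb/c. In C57Bl/6J it was 3.56, 61.4, 100.2 and 247 CPM on the HFHS diet and 0, 19.1, 36 and 67.1 CPM on SD. The diets overlapped for *Ccl4* as well, with a log2 fold change of 1.21 (edgeR adjusted p 1.0). With the edgeR quasi-likelihood test 0 of 5 chemokine genes were called in hypothalamic Tconv with a background of 0.0%, and of all 10875 genes 0 were called, 406 had an unadjusted p under 0.05, DESeq2 called 16 and limma-voom 0.

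In rest brain Tconv of C57Bl/6J *Ccl4* was lower in the median on the HFHS diet, and in Balb/c the diets were close. The *Ccl4* values given above had medians of 314 CPM on the HFHS diet and 285 CPM on SD in Balb/c, against 74.6 and 150 CPM in C57Bl/6J, where all 3 HFHS libraries lay below all 4 SD libraries. By TPM the Balb/c medians were 610.5 and 652.8. The interaction of diet with strain had an edgeR log2 value of 2.59 for *Ccl4* (SE 0.827, unadjusted p 0.00629, adjusted p 0.141), which was 1.60 without the C57Bl/6J SD library of pool 11_15, and of 1.23 for *Ccl5* (SE 0.5, adjusted p 0.277), so neither passed. With the edgeR quasi-likelihood test 0 of 6 were called in this interaction, 2 had an unadjusted p under 0.05, DESeq2 and limma-voom called 0 and the background was 0.61%. Over both strains, the edgeR log2 fold change between diets was 0.02 for *Ccl5*, -1.0 for *Ccl4*, -1.40 for *Ccl3* and -0.43 for *Xcl1*, with an adjusted p of 1.0 for each. The *Ccl5* value changed sign in 8 of 13 fits that left out 1 library, within -0.10 and 0.27. With the edgeR test 0 of 6 genes were called with a background of 0.0%, and of all 12287 genes 0 were called, 591 had an unadjusted p under 0.05, DESeq2 called 12 and limma-voom 1, none a chemokine of the 6.

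In Treg no chemokine gene passed the edgeR test between diets. *Ccl5* in rest brain Treg had 12.8 to 236 CPM in 8 HFHS libraries and 22.2 to 375 CPM in 6 SD libraries, with medians of 51.5 and 214 CPM, and the diets overlapped (edgeR log2 fold change -0.80, adjusted p 1.0). These medians mix unequal shares of the strains, with 4 of 8 HFHS and 2 of 6 SD libraries from Balb/c. Within Balb/c the medians were 46.9 and 42.7 CPM, and within C57Bl/6J 123 and 316 CPM. With the edgeR quasi-likelihood test 0 of 6 genes were called with a background of 0.0%. Of all 11711 genes 0 were called and 853 had an unadjusted p under 0.05, while DESeq2 called 327, *Ccl3* among them (adjusted p 0.0141), and limma-voom 16. *Ccl3* there rests on few libraries, since 3 of 14 had more than 3 counts. *Cxcl10* in C57Bl/6J rest brain Treg did not overlap between diets, from 0 to 33.1 CPM in 4 HFHS and from 44.5 to 273 CPM in 4 SD libraries (edgeR log2 fold change -2.73, adjusted p 0.958). In Balb/c it overlapped, and over both strains it was -2.29 (edgeR adjusted p 0.948). In hypothalamic Treg *Ccl5* had medians of 201 CPM on the HFHS diet and 119 CPM on SD (edgeR adjusted p 1.0). The strains ran opposite ways, with medians of 37.29 and 224.9 CPM in Balb/c and of 357.5 and 50.45 CPM in C57Bl/6J. The edgeR log2 value of 0.605 became -0.317 without the Balb/c HFHS library of pool 26_31. In hypothalamic Treg 0 of 2 testable genes were called with a background of 0.0%, also without the 4 libraries low in *Foxp3*. Of all 7715 genes there edgeR called 0, with 213 at an unadjusted p under 0.05, DESeq2 called 180 and limma-voom 4. The interaction of diet with strain in hypothalamic Tconv likewise had 0 of 5 genes called by edgeR with a background of 0.0%, with 493 of 10875 genes at an unadjusted p under 0.05, 165 called by DESeq2 and 0 by limma-voom.

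*Ccl1* was high in single libraries, as was *Cxcl10* in the hypothalamus. *Ccl1* was at 669 CPM in the hypothalamic Treg library of C57Bl/6J on the HFHS diet from pool 72_76, while the other libraries of that group had at most 0.429 CPM. In hypothalamic Tconv it was at 228 CPM in Balb/c on SD from pool 42_46 and at 79.6 CPM in C57Bl/6J on SD from pool 11_15, and the other hypothalamic Tconv libraries had at most 1.07 CPM. *Cxcl10* was at 1874 CPM in the shallowest library, hypothalamic Treg of C57Bl/6J on SD from pool 43_47, and at 456 CPM in that of C57Bl/6J on the HFHS diet from pool 77_80. In the rest brain, in contrast, *Cxcl10* was over 3 counts in 13 of 13 Tconv libraries, from 14.9 to 104 CPM, and in 12 of 14 Treg libraries.

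Across the 29 Tconv libraries, *Ccl3*, *Ccl4* and *Ccl5* varied together. On log2(TMM-scaled CPM + 1), *Ccl3* and *Ccl4* had a Pearson correlation of 0.754 (Spearman 0.75), with 0.646 within the hypothalamus, 0.887 within the rest brain and 0.717 without the 2 libraries farthest from the median. The correlation of *Ccl5* with *Ccl4* was 0.651 (0.558 and 0.833 within the tissues) and with *Ccl3* 0.617 (0.363 and 0.702). *Xcl1* had 0.104 with *Ccl5* and -0.0751 with *Ccl4*, and *Cxcl10* had 0.25 with *Ccl5*. These points share library, depth, strain and tissue, and the spans of *Ccl3* and *Ccl4* overlap. *Ccl4* also varied with *Cd8a*, at 0.658 over all, 0.837 in the hypothalamus, 0.437 in the rest brain and 0.415 without the 2 farthest libraries.

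Of the 12833 genes tested in these libraries, the 3 most like each chemokine gene were named by a set rule, as a description. They were *Supt4a* (0.864), *Casp1* (0.845) and *Ms4a4b* (0.842) for *Ccl5*, and *Ccl4* (0.754), *Cd79b* (0.722) and *Ube2d1* (0.715) for *Ccl3*. *Ccl4* had *Ube2d1* (0.813), *Fbxo33* (0.804) and *Nup35* (0.787), and *Xcl1* had *Smim7* (0.720), *Hsd11b1* (0.713) and *Pttg1* (0.711). *Cxcl10* had *Zfp518a* (0.699), *Arrdc3* (0.678) and *Rmnd5a* (0.671), and *Ccl1* had *Myo1d* (0.714), *Nrip3* (0.679) and *Tg* (0.667).

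Of the receptors of these ligands, *Cxcr3*, the receptor of Cxcl10, was the most abundant in the same libraries, while *Ccr1* had a median of at most 0.0890 CPM in each set. *Cxcr3* had medians of 998 CPM in hypothalamic and 869 CPM in rest brain Tconv and of 321 and 498 CPM in Treg, while *Ccr8* had medians of 45.8 and 38.5 CPM in Tconv. Of 8 receptor genes 6 were tested in the rest brain between cell types, where 15.7% of all genes were called, and *Cxcr3* fell in Treg by 0.77 (edgeR adjusted p 0.00469), *Xcr1* fell by 7.48 (edgeR adjusted p 0.00612) and *Ccr8* rose by 1.29 (edgeR adjusted p 0.0198) on the log2 scale. In the hypothalamus, with 13.9% of all genes called, 0 of 5 rose and 2 fell, *Xcr1* (-8.12) and *Ccr3* (-8.16). The median of *Ccr3* was 0 CPM in both hypothalamic sets, with highest values of 48.88 CPM in Tconv and 101.1 CPM in Treg. The medians of this list were -0.90 and -3.35, against -0.35 and -0.96 over all genes.

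Of 32 other chemokine ligand genes, 11 had enough counts to be tested in the rest brain, where 2 rose in Treg and 4 fell, with 15.7% of all genes called. *Cxcl2* and *Cxcl3*, ligands of Cxcr2 that attract neutrophils, rose, *Cxcl2* with a median of 63.7 CPM and a highest value of 432 CPM in 14 Treg libraries against at most 2.86 CPM in Tconv (edgeR log2 fold change 9.61, adjusted p 8.66e-05) and *Cxcl3* with 7.85 (edgeR adjusted p 0.0087). *Ccl9* fell by 6.09 and *Cxcl12* by 4.16, both at most 3.94 CPM in any rest brain library. In the hypothalamus 3 of the 32 were tested and 1 fell, *Ccl25* (-4.61), with 13.9% of all genes called. Its hypothalamic medians were 0.1146 CPM in Tconv and 0 CPM in Treg, and its highest values 9.235 and 19.85 CPM. The median log2 fold changes of the list were -0.04 and -0.01, against -0.35 and -0.96 over all genes.

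Some Th1 and cytotoxic genes fell in Treg. In the rest brain, where 15.7% of all genes were called, 1 of 11 rose in Treg and 5 fell, among them *Gzmk*, a granzyme (-10.81), *Eomes*, a transcription factor of cytotoxic cells (-9.63), and *Il12rb2*, a subunit of the receptor for interleukin 12 (-9.87), while *Klrg1*, an inhibitory receptor, rose (4.11). In the hypothalamus, where 13.9% were called, 7 of 11 fell and 0 rose, among them *Gzmb* (-10.51) and *Prf1*, which encodes perforin (-10.68). The medians were -3.42 and -7.23 on the log2 scale. Of 8 NF-kB genes 6 rose in rest brain Treg and 0 fell, among them *Nfkbia*, an inhibitor of NF-kB (1.60), and *Nfkb2* (2.52), with 1 rising in the hypothalamus (*Nfkbia*, 1.35). Of 11 T-cell receptor-induced genes 3 rose in rest brain Treg (*Tnfrsf9* 6.36, *Nr4a1* 1.88 and *Egr1* 1.20), and in the hypothalamus *Tnfrsf9* rose (5.21) and *Nr4a3* fell (-5.75). Of 9 interferon-induced genes 0 were called by edgeR in either tissue, with 1 and 0 at an unadjusted p under 0.05. The list medians were 1.09 and -0.63 for NF-kB genes, -0.06 and -1.15 for T-cell receptor-induced genes and -0.12 and 0.42 for interferon-induced genes.

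Genes of these lists were also called between tissues and strains in Tconv. In hypothalamic against rest brain Tconv, where 17.4% of all genes were called, 3 of 8 NF-kB genes rose (*Rela* 0.89, *Ikbkb* 0.58 and *Nfkb2* 1.10), where *Ccl5* fell. The other lists had at most 3 calls there: *Gzmb* rose (1.71) while *Klf13* (-0.39) and *Gzmk* (-0.48) fell, *Cxcr3* (0.42) and *Gbp2* (0.58) rose, and *Cx3cl1* (-5.32) and *Egr3* (-5.02) fell. In rest brain Tconv, where *Ccl5* rose in Balb/c and 23.5% of all genes were called, 8 of 9 interferon-induced genes fell, among them *Irf7* (-1.09, edgeR adjusted p 0.000618), with a list median of -0.92 against -0.03 over all genes. There 4 of 8 NF-kB genes, 3 of 11 T-cell receptor-induced genes, 2 of 6 receptors (*Cxcr3*, -0.59, and *Xcr1*, -1.73) and 1 of 11 Th1 genes (*Tbx21*, -1.48) fell as well, and *Ccl6* was the 1 of 4 other ligands that rose (6.48). In hypothalamic Tconv, where *Xcl1* fell in Balb/c and 2.1% of all genes were called, the calls were 1 of 11 Th1 and cytotoxic genes, *Nkg7* (-0.66), a gene of cytotoxic granules, and 1 of 10 T-cell receptor-induced genes, *Nfkbid* (1.05).

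The promoters of the chemokine genes are shown for 4 of 6, without *Ccl4* and *Ccl5*, which have no entry in the RefSeq promoter table of GRCm38.p6 used. They are given as 300 bases around the gene start, 5′ to 3′ on the gene's strand (minus for each). Whether the motifs bear on the levels above was not tested. Capitals mark matches to the NF-kB motif GGGNNNNNCC on either strand, where neighbouring matches overlap into 1 run. The motif occurs in 50.8% of 32851 promoters of this length, so a match is no particular feature. It matched at 3 places in *Cxcl10* and 2 in *Ccl1*, and at 0 in *Xcl1* and *Ccl3*, which says only that these letters are not in the window. The interferon-response core, which is GAAA, 2 bases of any kind and GAAA again, found in 3.44% of promoters, matched at 1 place in *Cxcl10*, with its first base at -213 from the gene start, and the AP-1 site TGANTCA, found in 7.81%, matched at 1 place there, at -74. Neither matched in the other promoters.
Cxcl10 (chr5:92348840-92349139): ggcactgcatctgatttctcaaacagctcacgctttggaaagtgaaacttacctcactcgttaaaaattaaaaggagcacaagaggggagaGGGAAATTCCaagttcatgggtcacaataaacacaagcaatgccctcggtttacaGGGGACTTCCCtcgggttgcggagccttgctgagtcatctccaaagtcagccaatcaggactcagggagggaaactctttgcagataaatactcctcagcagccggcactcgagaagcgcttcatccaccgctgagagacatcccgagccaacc
Ccl1 (chr11:82179763-82180062): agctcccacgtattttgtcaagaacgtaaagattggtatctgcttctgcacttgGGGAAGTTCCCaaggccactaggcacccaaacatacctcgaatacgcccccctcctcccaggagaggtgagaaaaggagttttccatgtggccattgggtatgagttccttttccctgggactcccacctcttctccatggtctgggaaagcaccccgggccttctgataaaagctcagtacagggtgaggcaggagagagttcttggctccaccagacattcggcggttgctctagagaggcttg
Xcl1 (chr1:164935473-164935772): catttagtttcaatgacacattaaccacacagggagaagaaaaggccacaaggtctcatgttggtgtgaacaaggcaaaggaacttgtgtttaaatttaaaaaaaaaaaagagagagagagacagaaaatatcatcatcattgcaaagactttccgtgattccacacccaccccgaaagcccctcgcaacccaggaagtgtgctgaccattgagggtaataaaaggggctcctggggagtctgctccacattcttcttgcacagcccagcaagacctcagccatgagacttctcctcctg
Ccl3 (chr11:83649329-83649628): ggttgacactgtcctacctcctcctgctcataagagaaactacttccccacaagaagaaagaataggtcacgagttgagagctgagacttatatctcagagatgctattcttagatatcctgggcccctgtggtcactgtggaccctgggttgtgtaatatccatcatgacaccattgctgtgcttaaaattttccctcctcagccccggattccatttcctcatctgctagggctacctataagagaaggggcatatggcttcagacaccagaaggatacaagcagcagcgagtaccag

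In the pilot experiment, 1 library per group held hypothalamic T cells sorted from a pool of 9 Balb/c females with the Foxp3GFP reporter for each diet, after 16 weeks, or of 7 pooled females that were *ob*/*ob*, which lack leptin, or C57Bl/6J wild type (WT). The counts on genes were 2173767 under HFHS feeding against 3315451 under SD in CD4+ T cells labelled naive (CD44-), which the study's text gives as CD44 low+int and which are called CD44 low T cells here, and 2029515 and 1234423 in Treg. They were 1727379 in *ob*/*ob* and 220336 in WT mice for CD4+ T cells and 99925 and 5334511 for CD25 high cells. The WT CD25 high library goes against its label, with 36540 CPM over 8 microglia markers, led by *P2ry12*, and 87.4 CPM over 7 T-cell markers. Folds below compare normalized reads with 95% Clopper-Pearson intervals that cover counting error only, and a gene was called past 2-fold with more than 20 normalized reads in either library.

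*Ccl5* was counted in all 8 pilot libraries. In CD44 low T cells it had 1891 counts (869.9 CPM) on the HFHS diet and 67 counts (20.2 CPM) on SD, a fold of 48.1 (37.7 to 62.3). Some markers differed between these 2 libraries in the same direction, with 15440 against 6099 CPM over 7 T-cell markers, 51.98 against 5.731 CPM of *Cd8b1* and 67.2 against 14.5 CPM over 11 markers of macrophages, monocytes and dendritic cells. Of that last sum, 52.44 and 7.239 CPM were *Ly6c2*, which activated T cells also express, and 8 of the 11 genes were at 0 in each library. Other marker lists ran the other way, with 194.1 against 608.4 CPM for oligodendrocytes, 60.26 against 108.0 CPM for endothelial cells and 1.38 against 20.21 CPM for astrocytes. In Treg *Ccl5* had 122 counts (60.1 CPM) on the HFHS diet and 132 counts (107 CPM) on SD, a fold of 0.769 (0.597 to 0.992). CD4+ T cells had 2116 counts (1225 CPM) in *ob*/*ob* and 287 counts (1303 CPM) in WT mice, a fold of 0.946 (0.836 to 1.07) that became 1.81 (1.603 to 2.059) with size factors over the 2 libraries and 1.72 with TMM. CD25 high cells had 99 counts (991 CPM) and 148 counts (27.7 CPM). The fold of 10.5 (8.02 to 13.6) in CD25 high cells compares a shallow library with the one rich in microglia markers, and it was 35.7 by CPM.

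*Xcl1* had 186 counts (85.6 CPM) on the HFHS diet and 35 counts (10.6 CPM) on SD in CD44 low T cells, a fold of 9.05 (6.28 to 13.4), and 257 counts (149 CPM) in *ob*/*ob* CD4+ T cells. It had 0 counts in the other 5 libraries, among them both Treg libraries, where 0 counts allow up to 1.48 CPM on the HFHS diet and 2.43 CPM on SD at the floor of 3 counts. Against the floor in WT, where 3 counts are 13.6 CPM, the *ob*/*ob* cells had *Xcl1* higher by 11 times or more, a bound that was 21.1 with size factors over the 2 libraries and 19.95 with TMM. *Cxcl10* was counted in 1 pilot library, *ob*/*ob* CD4+ T cells, with 299 counts (173 CPM), 12.8-fold or more above the WT floor, or 24.5-fold and 23.2-fold by those alternatives. NK-cell markers (138 against 0 CPM) and CD8 T-cell markers (95.5 against 0 CPM) were also counted only in the *ob*/*ob* library of this pair. Some other marker lists ran the other way, among them astrocytes (22 against 540.1 CPM), neurons (1.737 against 49.92 CPM) and erythroid cells (0 against 54.46 CPM). The WT library had 220336 counts against 1727379 in *ob*/*ob*, so low levels can go uncounted there. The part of depth or of other cells in these values was not tested.

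*Ccl4* and *Ccl3* were high in the Treg library on SD and in the WT CD25 high library. In Treg on SD *Ccl4* had 281 counts (228 CPM) and *Ccl3* 166 counts (135 CPM), and both had 0 counts in Treg on the HFHS diet, 112.5-fold and 66.5-fold lower at the floor of 3 counts. In the WT CD25 high library *Ccl3* had 3131 counts (587 CPM) and *Ccl4* 186 (34.9 CPM), and both had 0 counts in the *ob*/*ob* library. At the floor of 3 counts there, which is 30.0 CPM, they were 66.8-fold and 3.97-fold lower by normalized reads, and only 19.6-fold and 1.16-fold lower by CPM, with *Ccl4* then not called. In CD44 low T cells *Ccl4* had 14 counts under HFHS feeding against 0 under SD, and in *ob*/*ob* CD4+ T cells it had 5, with 0 for *Ccl3* in each of these libraries. *Ccl1* had 0 counts in all 8 libraries. Markers of other cells were also higher in the Treg library on SD than in that on the HFHS diet, at 730 against 34 CPM over 5 astrocyte markers, 222 against 0 CPM over 5 B-cell markers and 125 against 7.88 CPM over 11 markers of macrophages, monocytes and dendritic cells. The part of other cells in its *Ccl3* and *Ccl4* was not tested.

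The chemokine genes called were 2 between diets in CD44 low T cells, where 61.9% of all genes with enough reads were called, and 2 between diets in Treg, where 80.5% were. Between *ob*/*ob* and WT mice they were 2 in CD4+ T cells with 85.7% called and 3 in CD25 high cells with 77.8% called. The median log2 fold over all genes was -0.24, 0.78, 1.31 and -1.30 in the same order.

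**Figure D3:**
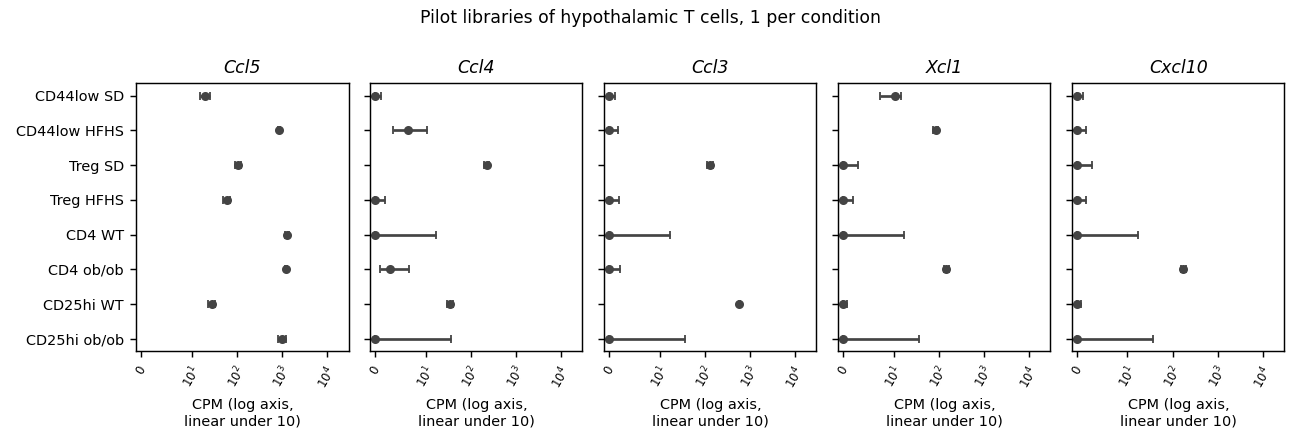
Level in CPM of the chemokine genes in the 8 pilot libraries, 1 per group, on a log axis with 95% Poisson intervals for counting error. *Ccl5* is at 869.9 CPM in CD44 low T cells on the HFHS diet and at 20.2 CPM on SD, and *Ccl3* is highest in the WT CD25 high library, at 587 CPM.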

How the data were processed

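The authors deposited raw counts from HTSeq-count for the pilot libraries, after alignment of reads with BWA-mem to mm10, and estimated counts and TPM from Salmon for the second experiment, run within release 3.16 of nf-core/rnaseq, with no versions of BWA, HTSeq or Salmon themselves given. The genes and the gene lists were chosen with earlier results of these data known. Of 35034 deposited names 34652 were matched, which gave 24530 gene features, and the deposited estimated counts were summed per gene and rounded. CPM was taken from those counts. Deposited TPM served to order genes by level and to give some medians and ranges of groups beside CPM, and was not tested.

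Genes were kept when the number of libraries with more than 10 counts reached the size of the smallest group, and were tested with the edgeR 4.0.16 quasi-likelihood test after TMM scaling, with Benjamini-Hochberg adjustment over all genes tested and a threshold of 0.05. The models of cell type and tissue held the group of strain and diet, those of strain held diet, and those of diet held strain. Alternatives were DESeq2 1.42.0, DESeq2 size factors within edgeR, limma-voom (limma 3.58.1) with quality weights, a filter of more than 10 counts in total, the pool label as a block, each strain or diet alone, and leaving out each library in turn. Leaving out the Treg libraries low in *Foxp3*, and the interaction of tissue with strain, were added after seeing the data. Pilot folds used median-of-ratios size factors over the 8 libraries, with CPM, TMM and size factors over the 2 libraries compared as alternatives. Named genes were the 6 chemokines, at most 4 passing genes per list and comparison with the smallest adjusted p, and the 3 genes most correlated with each chemokine. The code was tested on simulated data. R 4.3.3 and Python 3.11.15 were used.

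Bulk libraries hold RNA of all sorted cells, and pools rather than mice are the replicates. Strain and sex cannot be told apart in the second experiment, and the pilot groups have 1 library each. Hypothalamic Treg libraries vary most in depth and markers, and genes with 0 counts in most libraries have fitted folds that depend on few values. Protein was not measured.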

Additional observations from a re-analysis of the deposited data

Results flagged for a closer look

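Single libraries far above the rest of their group were looked for in groups of 4 libraries whose highest had more than 3 counts, by the gap to the nearest other library as a share of the range. Of 59 combinations of group and gene, 26 passed the 95% limit, and each was the highest library of its group. In most of these groups at least 1 other library had 0 CPM, so the usual chance rate of about 1 in 20 groups does not hold here and the limit serves only to list libraries.

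*Ccl5* was at 730.6 CPM in hypothalamic Treg of Balb/c on the HFHS diet (pool 26_31, the others up to 50.8 CPM) and at 571.3 CPM in those of C57Bl/6J on SD (pool 43_47, the others up to 89.5 CPM). *Ccl3* was at 91.74 CPM in hypothalamic Tconv of Balb/c on the HFHS diet (pool 26_31) and at 6.446 CPM in those of C57Bl/6J on SD (pool 11_15). It was at 143.0 CPM in rest brain Tconv of C57Bl/6J on SD (pool 11_15) and at 218.3 CPM in rest brain Treg of Balb/c on the HFHS diet (pool 26_31). *Ccl4* stood out in the same rest brain libraries, at 638.9 CPM in Tconv of pool 11_15 and at 301.2 CPM in Treg of pool 26_31. It was also at 410.6 CPM in hypothalamic Treg of pool 11_15 and at 47.03 CPM in rest brain Treg of pool 67_71, both of C57Bl/6J on SD.

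*Ccl1* was at 227.7 CPM in hypothalamic Tconv of Balb/c on SD (pool 42_46), at 79.56 CPM in those of C57Bl/6J on SD (pool 11_15) and at 669.1 CPM in hypothalamic Treg of C57Bl/6J on the HFHS diet (pool 72_76). In rest brain Treg it was at 2.714 CPM (pool 26_31), 28.91 CPM (pool 33_37) and 46.28 CPM (pool 62_66). *Xcl1* in hypothalamic Treg was at 790.8 CPM (pool 11_14), 5.361 CPM (pool 72_76) and 99.18 CPM (pool 43_47), and in rest brain Treg at 14.4 CPM (pool 33_37) and 11.03 CPM (pool 62_66). *Cxcl10* was at 257.2 CPM in hypothalamic Tconv of pool 11_15, and in hypothalamic Treg at 110.9 CPM (pool 26_31), 74.37 CPM (pool 42_46), 455.6 CPM (pool 77_80) and 1874 CPM (pool 43_47).

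A difference between groups was tested for *Xcl1*, whose tissue difference in Tconv differed between the strains by -0.97 on the log2 scale (edgeR quasi-likelihood test, Benjamini-Hochberg adjusted p 0.026). The test was added after seeing the data. The adjusted p was 0.0801 without the Balb/c SD rest brain library of pool 37_41 and 0.0517 with the filter on total counts.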

How the results depend on the processing

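The number of the 6 chemokine genes called moved under these alternatives, given with the share of all genes called. With limma-voom it was 4 for Treg against Tconv in the rest brain (25.1%) and 4 for tissue in Tconv (23.6%), and with DESeq2 2 for tissue in Tconv (19.9%), 2 for strain in rest brain Treg (2.57%) and 1 for diet in rest brain Treg (2.79%). With Balb/c alone it was 3 for tissue in Tconv (25.5%) and 3 for the interaction of cell type and tissue (10.9%), and with C57Bl/6J alone 0 for Treg against Tconv in the hypothalamus (3.73%) and 0 for tissue in Tconv (0.00871%). For strain it was 0 in hypothalamic Tconv with SD alone (0.471%) and 0 with HFHS alone (0.677%), and in rest brain Tconv 0 with SD alone (7.15%) and 2 with HFHS alone (20.8%). With the libraries low in *Foxp3* left out it was 1 for tissue in Treg (7.92%) and 2 for the interaction of cell type and tissue (8.91%), and with the filter on total counts 0 for the interaction of tissue and strain (6.67%). For Treg against Tconv the filter on total counts gave 3 in the rest brain (27.5%) and 4 in the hypothalamus (13%), and Balb/c alone gave 2 in the hypothalamus (14%). The cause was not tested.

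Values that changed sign were those of *Cxcl10* between cell types in the hypothalamus (limma-voom -0.46), *Xcl1* (0.17) and *Cxcl10* (0.19) between tissues in Tconv of C57Bl/6J alone, *Ccl5* (-0.53, C57Bl/6J alone) and *Ccl4* (0.29, Balb/c alone) between diets in rest brain Tconv, and *Xcl1* in the interaction of cell type and tissue (limma-voom -0.43). The *Ccl5* diet value in rest brain Tconv ran from -0.10 to 0.27 when each library was left out. The cause was not tested.

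With the pool label as a replicate block, the count was 4 for Treg against Tconv in the rest brain (12.7% of all genes), 4 in the hypothalamus (49.1%), 0 for tissue in Tconv (0.896%), where *Ccl5* was no longer called (adjusted p 0.103), 0 for tissue in Treg (0.0%) and 0 for the interaction of cell type and tissue (8.41%), with *Cxcl10* in the hypothalamus at -3.87 and the *Xcl1* interaction at -2.55. Of 46 pairs of libraries that share a pool label 2 had a correlation above 0.1, and the best match was the own pool in 23 of 88 cases. Whether the same mice stand behind equal labels was not tested.

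Leaving out each library in turn, the number called ran from 2 to 4 and 3 to 4 for cell type in the rest brain and hypothalamus, from 1 to 2 and 0 to 1 for tissue in Tconv and Treg, from 1 to 1, 1 to 2 and 0 to 1 for strain in hypothalamic Tconv, rest brain Tconv and rest brain Treg, from 0 to 1 for cell type by tissue and from 0 to 2 for tissue by strain, and was 0 elsewhere. Among the log2 fold changes followed for the text, 8 changed sign, all of *Ccl5* between diets in rest brain Tconv, and other genes and comparisons changed sign as well.

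All genes called by edgeR, against the lowest and highest count over the alternatives other than leaving out each library, were 2190 (384 to 5118) and 1563 (383 to 7468) for cell type in the rest brain and hypothalamus, 2233 (1 to 6964) and 706 (0 to 4298) for tissue in Tconv and Treg, 228 (47 to 542), 2887 (802 to 3741), 3 (0 to 250) and 35 (2 to 301) for strain in hypothalamic and rest brain Tconv and hypothalamic and rest brain Treg, 1399 (774 to 5906) for cell type by tissue, and 75 (35 to 674) and 0 (up to 165) for diet by strain in rest brain and hypothalamic Tconv. When each library was left out in turn, the 75 genes of diet by strain in rest brain Tconv became 0 to 251. For diet, 0 became at most 16 and 12 in hypothalamic and rest brain Tconv and 180 and 327 in hypothalamic and rest brain Treg. DESeq2 gave no adjusted p for *Xcl1* between cell types in the rest brain. With DESeq2 size factors the median over all genes moved from -0.17 to -0.36 for cell type by tissue, from -0.28 to -0.16 for strain and from 0.19 to 0.03 for diet in hypothalamic Treg. In the pilot, the *Ccl5* fold between *ob*/*ob* and WT CD4+ T cells was 1.81 with size factors over the 2 libraries and 1.72 with TMM, against 0.946. By CPM the *Ccl5* fold was 0.562 between diets in Treg, and in CD25 high cells 35.7 for *Ccl5*, 0.0512 for *Ccl3* and 0.861 for *Ccl4*. Depth also limits the pilot, at 99925 counts in the shallowest library.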
